A study of Rattus norvegicus with 22 samples.

Results

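The ventral horn of the spinal cord, sampled without regard to cell identity, was compared with retrogradely identified motor neurons. The comparison took every array labelled MIX and every array labelled MN, 15 of the 22 arrays of the series (8 MIX and 7 MN), and all 1050 probe sets of the deposited table. MIX arrays held amplified RNA from randomly microdissected cells of the ventral part of the L2 lumbar segment, and MN arrays held RNA from cells of the same segment that had taken up a rhodamine dextran tracer from the cut L2 ventral roots. All animals were Wistar rats of postnatal day 0 to 4, each array came from another animal, and all spinal cords went through the same 3 hour incubation, 10 µm sectioning, laser microdissection and 2 rounds of RNA amplification. The remaining 7 arrays came from descending commissural interneurons (dCINs) of L2 that were labelled from a cut of the cord between L3 and L4, and they are used here only for levels set side by side and for the shared estimate of the spread. MIX was no pure interneuron sample: cells were picked at random, so MNs and dCINs could be among them. The labels describe every sample as fluorescently labelled neurons, whereas the methods describe MIX cells as random.

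The ventral horn is the motor region of the spinal cord. MNs are its cholinergic output cells, large neurons that load acetylcholine into vesicles, send axons out through the ventral roots and are rich in neurofilaments. Around them lie inhibitory interneurons, which release GABA or glycine, excitatory interneurons, which release glutamate, and glia. A random sample of cells therefore mixes the RNA of several classes, weighted by how many cells of each class were cut and by how much RNA each held. In such pooled samples fewer cells of a type and less RNA per cell cannot be told apart.

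The number of cells per sample was 95, 112.5 and 187 (lowest, median and highest) for MIX and 55, 100 and 250 for MN. The means were 122 and 129 cells, and an exact permutation test of the difference (6435 arrangements of the 15 samples) gave a two-sided p = 0.842. The MN samples included 2 of over 200 cells, those of MN arrays 1 and 2 (250 and 230 cells). Without them MIX samples held 38.1 more cells than MN samples on average (exact permutation test, two-sided p = 0.0389, 8 against 5 samples). On the log2 scale each array was set against the mean of the other arrays of its group. 1 minus the correlation was then largest for MN arrays 2 and 1 (0.118 and 0.0984) and for MIX arrays 7 and 5 (0.105 and 0.0866), against 0.0624 or less for the other 11 arrays. MN array 3 was the highest MN array for several interneuron transcripts and not for others. Its Slc32a1 signal was 366 and its signal of the cannabinoid receptor Cnr1 247, where the highest of the other 6 MN arrays reached 149 and 104. MN array 3 was also the highest MN array for Nptxr (80.2) and the GABA receptor Gabbr2 (296). It was the lowest MN array for Ngfr (253) and Syt2 (70.0). For Hcrtr2 and Nrxn3 it ranked second among MN arrays (43.2 and 305), and its Slc1a6 and Penk signals, 77.5 and 39.9, lay within the range of the other 6. Fits without these arrays are given with the calls.

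Very few probe sets separated MIX from MNs. With limma, p-values adjusted by Benjamini-Hochberg and a threshold of 0.1, 10 of the 1050 probe sets were called (0.952%), 3 of them higher in MIX (0.286%) and 7 lower (0.667%). At an adjusted p under 0.05, 2 remained, Slc1a6 and Slc32a1, both higher in MIX. An unadjusted p under 0.05 was reached by 124 probe sets (11.8%), 51 with a higher (4.86%) and 73 with a lower MIX mean (6.95%). The median log2 difference, MIX minus MN, over all probe sets was -0.04, and the middle of the distribution ran from -0.19 (lower quartile) to 0.10 (upper quartile). Differences past 2-fold were found for 18 probe sets, 14 toward MIX and 4 toward MNs. The 8 MIX and 7 MN values did not overlap for 2 probe sets (0.19%), Slc1a6 and Syn2. In the plot of difference against level, the called probe sets with a lower MIX signal fell into a bright set of 4 and a dim set of 3.

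**Figure D1:**
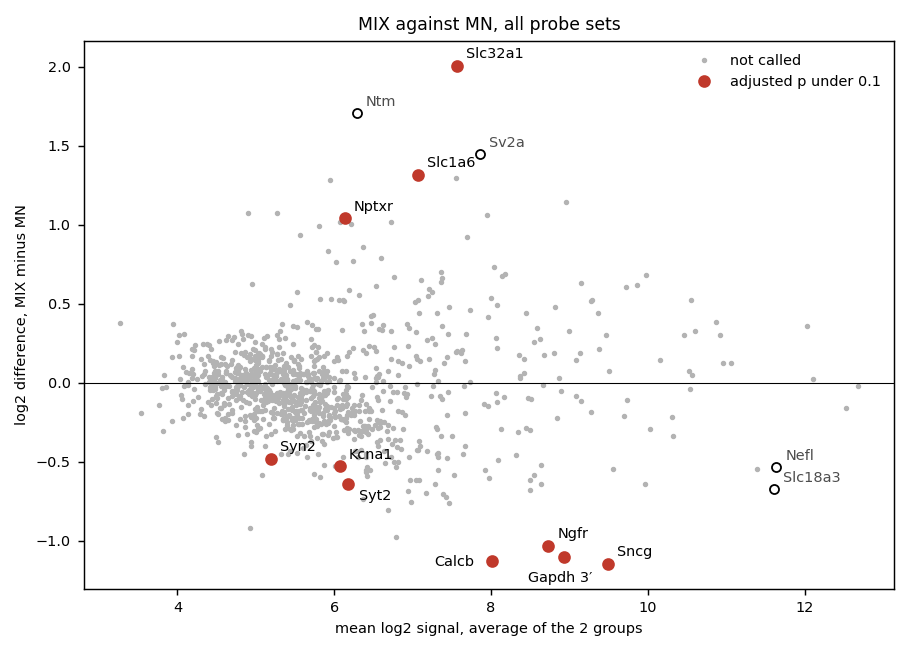
Log2 difference between MIX and MN means (vertical axis) against the mean log2 signal of both groups (horizontal axis) for all 1050 probe sets. The 10 called probe sets are filled red circles, 3 above 0 and 7 below, and open circles mark 4 further genes that were not called, among them the motor neuron marker Slc18a3 at -0.67.

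The 2 genes that stood out in MIX are both transporters of amino acid transmitters. Slc32a1 encodes the vesicular transporter that fills synaptic vesicles with GABA and glycine and marks inhibitory neurons. Its signal was 187, 367 and 580 (lowest, median and highest) on the MIX arrays and 35.2, 82.3 and 366 on the MN arrays. The ranges overlapped only through MN array 3, since MIX array 5 held the lowest MIX value and the other 6 MN arrays lay at 149 or less. The log2 difference was 2.01 ± 0.35 (SE), a 4.02-fold higher level in MIX (limma, adjusted p = 0.00475). The call held when any of the 15 arrays was left out, with differences of 1.77 to 2.33, and under 14 of 15 other settings. It was lost among arrays numbered 3 and above, a setting added after the data had been seen, where the adjusted p was 0.105. Slc1a6 encodes a glutamate transporter best known from Purkinje cells of the cerebellum. Its signal was 156, 227 and 252 on the MIX arrays and 65.9, 81.8 and 112 on the MN arrays. Every MIX array lay above every MN array. The difference was 1.32 ± 0.19 (SE), or 2.49-fold (limma, adjusted p = 0.000447), and it was called in all 15 fits that left out an array and under all 15 other settings.

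The levels in dCINs overlapped those of MIX for both transporters. On the 7 dCIN arrays the Slc32a1 signal was 352, 488 and 762 and the Slc1a6 signal 138, 282 and 339. Since the dCIN and MIX differences were both taken from the same 7 MN arrays, they are given side by side only: for Slc32a1 dCINs minus MNs gave 2.40 on the log2 scale beside 2.01 for MIX minus MNs, and for Slc1a6 1.48 beside 1.32. A further probe set of each gene was dim and did not separate the groups. The second Slc32a1 probe set lay at 36.3 to 54.5 in MIX and 29.1 to 42.4 in MNs (difference 0.28, limma adjusted p = 0.345), and the second Slc1a6 probe set at 35.2 to 50.8 and 38.5 to 51.3 (difference -0.02, limma adjusted p = 0.925).

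The third called gene with a higher MIX signal was Nptxr, a transmembrane receptor of the neuronal pentraxins that takes part in gathering glutamate receptors at synapses. Its signal was 74.6, 92.2 and 181 in MIX and 35.2, 50.9 and 80.2 in MNs. A single MN array, number 3, reached into the MIX range. The difference was 1.04 ± 0.27 (SE; limma, adjusted p = 0.097), a call that held in only 2 of the 15 fits with an array left out. A second, dim Nptxr probe set gave 0.17 (limma, adjusted p = 0.495). Next by p, and not called, came Ntm (neurotrimin), a cell adhesion molecule of neurons, and Sv2a, a glycoprotein of synaptic vesicles. Ntm read 74.2, 143 and 286 in MIX against 21.1, 43.7 and 77.4 in MNs, a difference of 1.71 ± 0.49 (SE) with a limma adjusted p of 0.17. Ntm was called under 6 of 15 other settings, among them the 15 MIX and MN arrays alone (limma, adjusted p = 0.0517), and in none of the 15 fits with an array left out. Sv2a read 115, 394 and 754 in MIX against 58.7, 170 and 247, a difference of 1.45 ± 0.43 with a limma adjusted p of 0.191, and was called under 4 of the 15 settings. Both are larger differences than that of Nptxr with a wider spread among arrays, and for both 1 MIX array lay inside the MN range.

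**Figure D2:**
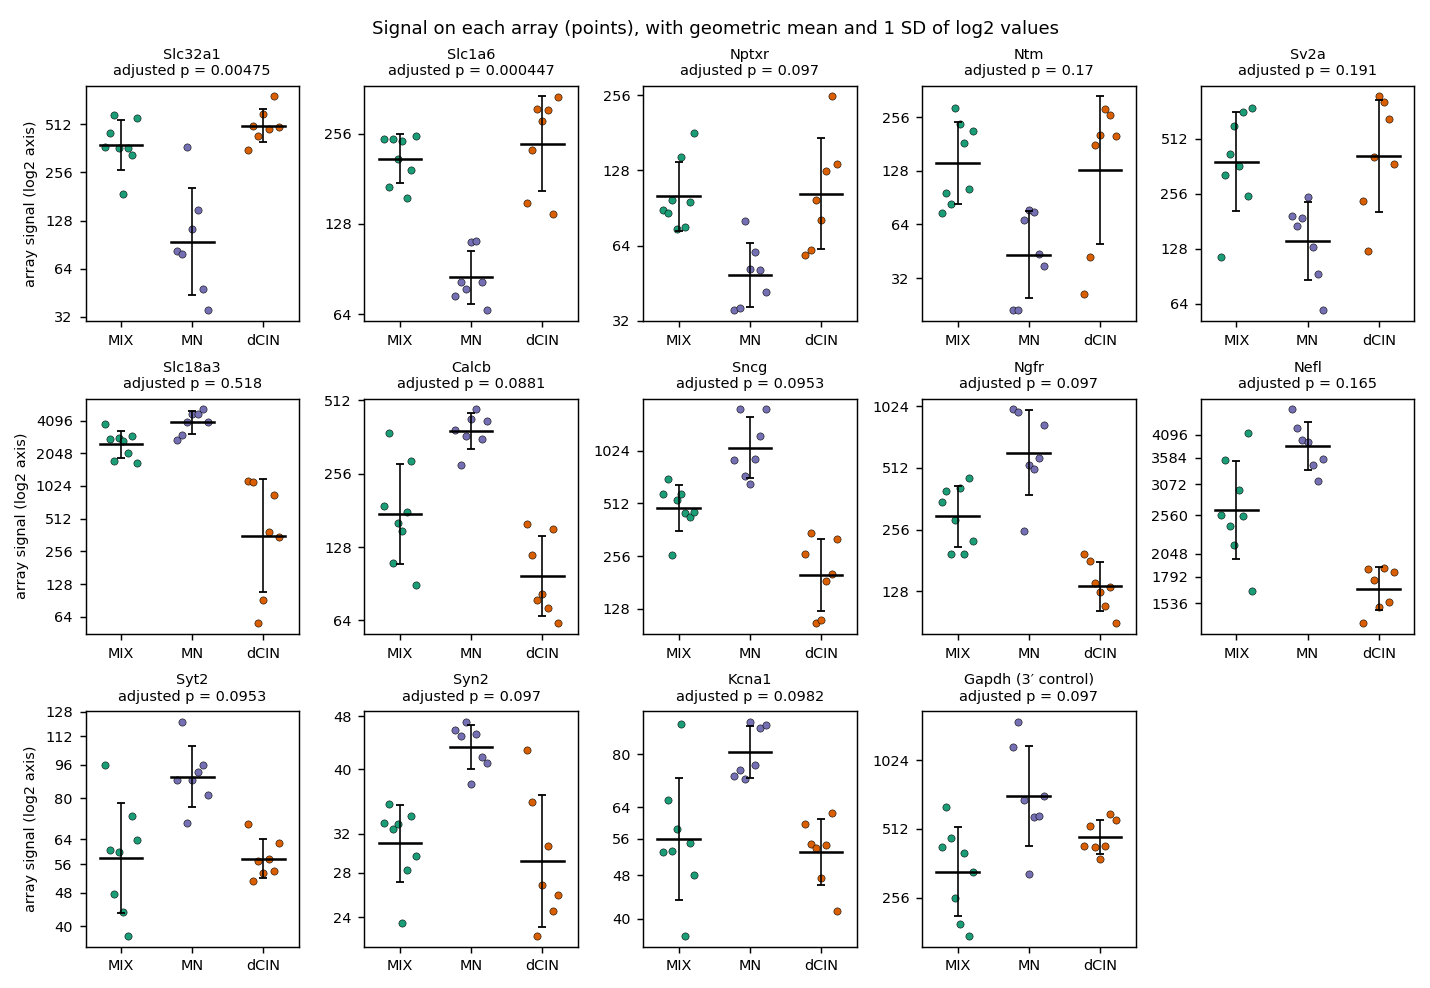
Array signal (log2 axis) of 14 probe sets on each of the 8 MIX, 7 MN and 7 dCIN arrays. Points are arrays, the horizontal line is the geometric mean and the bars are 1 SD of the log2 values. Above each panel stands the limma adjusted p of MIX versus MN. In the Slc1a6 and Syn2 panels the MIX and MN points do not overlap, and in the Slc32a1 panel a single MN array, at 366, reaches the MIX range.

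Sequence upstream of the gene starts is shown for 2 genes higher and 2 genes lower in MIX, to set the promoters of genes that moved in opposite directions beside each other. RefSeq promoters of the GRCr8 build were held for 6 of the 10 called genes. Each line gives the 250 bases before the gene start, 5′ to 3′, with CG dinucleotides, the sites of DNA methylation, in capitals.
Slc1a6, chr7:11521008-11521257 (minus strand): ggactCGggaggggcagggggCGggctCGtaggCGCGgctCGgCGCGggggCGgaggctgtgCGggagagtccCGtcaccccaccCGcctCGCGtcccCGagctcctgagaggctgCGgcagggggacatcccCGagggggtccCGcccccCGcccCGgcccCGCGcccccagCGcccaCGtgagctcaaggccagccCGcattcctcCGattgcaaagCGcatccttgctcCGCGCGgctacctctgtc
Slc32a1, chr3:167686995-167687244 (plus strand): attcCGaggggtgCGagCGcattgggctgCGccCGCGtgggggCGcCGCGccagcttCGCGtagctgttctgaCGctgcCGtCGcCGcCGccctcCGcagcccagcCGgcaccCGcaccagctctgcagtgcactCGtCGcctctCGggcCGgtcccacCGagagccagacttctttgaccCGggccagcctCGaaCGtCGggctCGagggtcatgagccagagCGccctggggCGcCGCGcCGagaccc
Sncg, chr16:9711337-9711586 (minus strand): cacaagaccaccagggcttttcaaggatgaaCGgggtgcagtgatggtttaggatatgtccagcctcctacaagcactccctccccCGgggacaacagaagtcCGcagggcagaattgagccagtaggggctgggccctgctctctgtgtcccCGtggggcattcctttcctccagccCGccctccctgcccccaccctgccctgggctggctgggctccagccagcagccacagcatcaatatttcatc
Syt2, chr13:48736872-48737121 (plus strand): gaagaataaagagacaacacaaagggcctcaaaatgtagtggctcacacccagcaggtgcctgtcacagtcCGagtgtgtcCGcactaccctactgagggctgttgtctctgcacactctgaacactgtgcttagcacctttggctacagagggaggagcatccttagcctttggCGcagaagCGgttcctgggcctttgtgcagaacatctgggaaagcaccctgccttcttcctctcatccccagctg
The Slc1a6 window held 30 CG dinucleotides and the Slc32a1 window 34, and the Sncg and Syt2 windows held 5 and 4. Over the 33465 windows of the same length the median was 5 (quartiles 2 and 15), and 92.2% held at least 1 CG, a motif that reads the same on both strands. As many CG or fewer were found in 95.3% and 97.4% of all windows for Slc1a6 and Slc32a1 and in 50.2% and 44.7% for Sncg and Syt2. Syn2, also lower in MIX, held 19, and Gapdh 17, so a low count was not shared by the genes lower in MIX. The arrays measured no DNA methylation and no binding at these windows.

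The 4 probe sets more than 2-fold lower in MIX were those of Sncg, Calcb and Ngfr and a control probe set of Gapdh. Calcb encodes a calcitonin gene-related peptide, which MNs make and release at the neuromuscular junction. It read 89.6, 170 and 376 in MIX and 278, 386 and 471 in MNs, with 2 MIX arrays inside the MN range. The difference was -1.13 ± 0.26 (SE; limma, adjusted p = 0.0881). Sncg, gamma-synuclein, a small protein of peripherally projecting neurons, read 260, 496 and 705 in MIX and 664, 919 and 1767 in MNs. A single MIX array, number 2, reached above the lowest MN array, and the difference was -1.15 ± 0.28 (SE; limma, adjusted p = 0.0953). Ngfr, the p75 neurotrophin receptor, which MNs express around birth, read 193, 317 and 455 in MIX and 253, 571 and 992 in MNs. The difference was -1.03 ± 0.26 (SE; limma, adjusted p = 0.097), and 5 MIX arrays lay inside the MN range, whose lowest value belonged to array 3. A second Ngfr probe set, dimmer than the first by its mean signal in MIX (296 against 313) and in MNs (384 against 663) and brighter in dCINs (285 against 139), gave -0.31 (limma, adjusted p = 0.437), so the 2 probe sets of Ngfr disagreed on the size.

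A second set of called genes was dim and changed less. Syt2, a calcium sensor of fast transmitter release, read 37.9, 60.1 and 95.8 in MIX and 70, 88.6 and 121 in MNs, with 2 MIX arrays inside the MN range and a difference of -0.64 ± 0.16 (SE; limma, adjusted p = 0.0953). Syn2, a synapsin that tethers synaptic vesicles, read 23.5, 32.8 and 35.4 in MIX and 38, 44.8 and 47 in MNs. No MIX array overlapped the MN arrays, yet all values lay in the dim part of the scale, and the difference was -0.48 ± 0.12 (SE; limma, adjusted p = 0.097). Kcna1, a potassium channel of axons, read 37.2, 54 and 91 in MIX and 72, 76.3 and 91.5 in MNs, with 1 MIX array inside the MN range and a difference of -0.53 ± 0.14 (SE; limma, adjusted p = 0.0982). A second Kcna1 probe set gave -0.48 (limma, adjusted p = 0.412) and a second Syn2 probe set -0.10 (limma, adjusted p = 0.753). The remaining call was the 3′ control probe set of Gapdh, a glycolytic enzyme, at 174, 367 and 639 in MIX against 325, 688 and 1501 in MNs (difference -1.10 ± 0.28 (SE); limma, adjusted p = 0.097).

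The other Gapdh control probe sets did not follow. The 5′ and middle probe sets gave 0.36 and 0.06, with limma adjusted p of 0.571 and 0.91. The log2 ratio of the 3′ to the 5′ Gapdh probe set within an array was -0.15, 0.93 and 1.78 in MIX and 1.13, 1.72 and 4.50 in MNs, and for beta-actin it was 1.78, 3.00 and 4.18 in MIX and 1.60, 3.03 and 3.30 in MNs. The Gapdh ratio thus stood lower in MIX and the beta-actin ratio did not. The part of this 3′ to 5′ balance, which reflects RNA length after amplification, in the other calls was not tested. Without MIX arrays 5 and 7 and MN arrays 1 and 2, the Gapdh difference went from -1.10 to -0.46 (limma, adjusted p = 0.781).

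Of the 10 calls, the 8 outside Slc1a6 and Slc32a1 had adjusted p between 0.0881 and 0.0982, and each was lost in most fits with an array left out. Calcb and Sncg stayed called in 5 of 15 such fits, Syt2 in 4, Ngfr and Kcna1 in 3, and Nptxr, Syn2 and the Gapdh probe set in 2. Under the other settings Sncg was called in 11 of 15, Calcb in 10 of 15 and Syn2 in 10 of 14. Syt2 and Nptxr were called in 9 of 15, Ngfr in 8, Kcna1 in 7 and the Gapdh probe set in 5. None of the 10 changed direction in any setting. When MIX array 3, 4, 6 or 8 or MN array 1, 5, 6 or 7 was left out, 2 probe sets were called, Slc1a6 and Slc32a1. Without MIX array 1 the number was 6, without MIX array 5 or MN array 2 it was 3, and without MN array 4 it was 4. Without MIX array 2, MIX array 7 or MN array 3 it was 14, 12 and 11. Among these fits Ngfr moved most without MN array 3, to -1.24 (limma, adjusted p = 0.00798). Without MIX arrays 5 and 7 and MN arrays 1 and 2 together, the called probe sets were Slc1a6, Slc32a1 and Kcna1, each at a limma adjusted p of 0.0232. The limma adjusted p without those 4 arrays was 0.108 for Calcb, 0.179 for Ngfr, 0.265 for both Sncg and Syt2, 0.323 for Syn2 and 0.66 for Nptxr, whose difference was then 0.78.

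**Figure D3:**
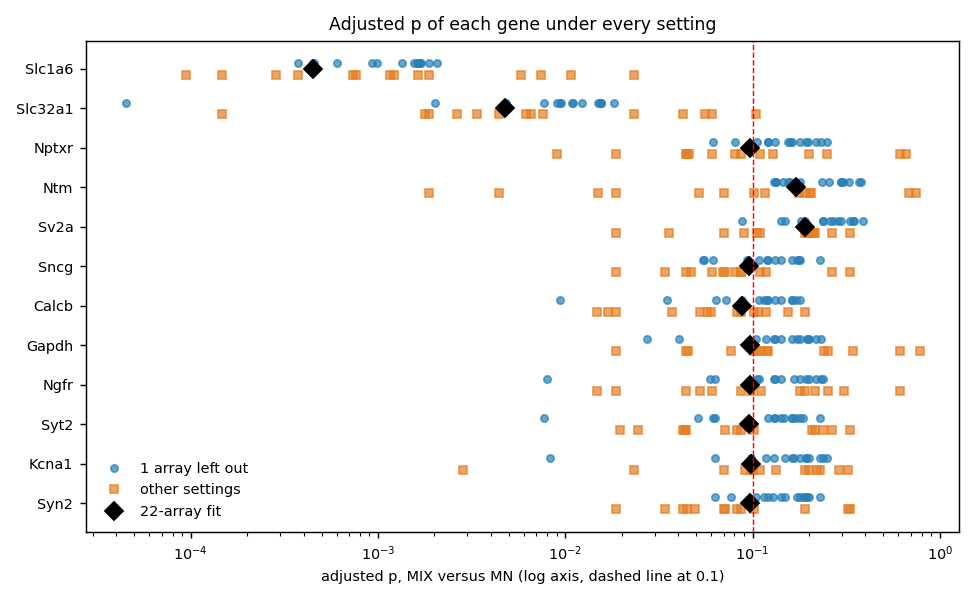
Limma adjusted p of MIX versus MN (log axis) for the 10 called genes and for Ntm and Sv2a. Black diamonds are the fit of all 22 arrays, blue circles are the 15 fits that left out 1 array, and orange squares are the other settings. Slc1a6 stays left of the dashed line at 0.1 throughout, Slc32a1 crosses it once at 0.105, and the other genes lie on both sides.

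The marker of cholinergic neurons was not called. Slc18a3 encodes the vesicular acetylcholine transporter, and its signal was 1672, 2704 and 3801 in MIX, 2692, 4020 and 5211 in MNs and 55.8, 390 and 1133 in dCINs. MIX arrays thus held high levels of it, above every dCIN array, and 4 of the 8 MIX arrays lay inside the MN range. The difference from MNs was -0.67 ± 0.49 (SE; limma, adjusted p = 0.518), a 1.59-fold lower level. The SE was widened by the spread among dCIN arrays, which entered the same fit. With the 15 MIX and MN arrays alone it was 0.19, with an unadjusted p of 0.00255 and an adjusted p of 0.22. A second, dim Slc18a3 probe set gave -0.27 (limma, adjusted p = 0.412).

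All 7 measured motor neuron markers of 12 listed had a lower mean in MIX, 2 of them called (Calcb and Sncg), with a median log2 difference of -0.55 beside -0.04 over all probe sets. Each gene was taken by its brightest probe set, which for Ngfr was the one that was not called. Over all 1050 probe sets 43.1% had a higher mean in MIX and 0.667% were called lower. Most of these markers were picked by the study as higher in the same MN arrays, so a lower MIX mean was partly built in. The summed signal of the 7 markers was 12437, 14581 and 18541 in MIX, 18424, 19959 and 21450 in MNs, and 6971, 9966 and 11118 in dCINs. The MIX sums lay between those of dCINs and MNs, and a single MIX array passed the lowest MN array. Nefl, the light neurofilament subunit, read 1651, 2556 and 4136 in MIX and 3134, 3937 and 4755 in MNs, a difference of -0.53 ± 0.15 (SE) with a limma adjusted p of 0.165. Nefh, the heavy subunit, gave -0.55 (limma, adjusted p = 0.28). For Nefm, the middle subunit, which was looked at after its value was seen, the difference was -0.02. The neurofilaments therefore did not differ alike in size. Tagln3, a neuronal actin-binding protein, gave -0.64 (limma, adjusted p = 0.237).

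Other genes of inhibitory and glutamatergic transmission were not called. Among 4 measured genes of GABA and glycine handling 1 was called, and the list median was -0.01. Among 5 genes of glutamate transport and metabolism 1 was called, with a median of 0.00. The glial glutamate transporters Slc1a2 and Slc1a3 gave -0.31 and 0.19, and the neuronal Slc1a1 gave 0.00, none of them called. Of 4 metabotropic glutamate receptors none was called (median 0.06). Grm4 had the smallest p, with a difference of 0.69 and a limma adjusted p of 0.238. Probe sets without a symbol in the annotation stood outside these lists. Among them were those that the study names SC6A1, a GABA transporter, and MGR1, a metabotropic glutamate receptor. Their differences were 1.00 and 1.08, both with a limma adjusted p of 0.412.

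The other transmitter receptors gave no call with limma, and over the 97 of them an unadjusted p under 0.05 was reached by 5 with a higher and 7 with a lower mean in MIX (5.15% and 7.22%), close to the 4.86% and 6.95% of all probe sets. None of 10 AMPA and kainate, 7 NMDA, 15 GABA-A and GABA-B and 2 glycine receptor genes was called, with list medians of 0.05, -0.23, -0.13 and -0.28. None of 11 serotonin, 12 adrenergic and dopamine and 20 acetylcholine receptor genes was called either, with medians of -0.05, -0.10 and -0.06. Among 20 neuropeptide and cannabinoid receptors (median -0.06), the orexin receptor Hcrtr2 read 10.3, 61.2 and 136 in MIX and 9.14, 16 and 77.1 in MNs. Its difference was 1.07 ± 0.49 (SE; limma, adjusted p = 0.412). The dCIN arrays read 107, 134 and 213, so a single MIX array, number 6, reached their range. Of 13 neuropeptide precursors 1 was called, Calcb, and the list median was -0.11. Penk, which encodes the enkephalins of inhibitory and other interneurons, read 26, 82.6 and 194 in MIX and 24.9, 40.4 and 48.4 in MNs (difference 0.99, limma adjusted p = 0.237).

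Ion channels gave no call by their brightest probe sets. Of the 54 measured, 2 with a higher (3.70%) and 10 with a lower mean in MIX (18.5%) reached an unadjusted p under 0.05 with limma, beside 4.86% and 6.95% of all probe sets. Some of the 10 read high mainly on MN arrays 1 and 2. Scn4a read 486 and 456 there and 87.6 to 116 on the other MN arrays. Scn7a, another sodium channel, read 101 and 112 there and 50.3 to 56.7 on the others. None of 19 voltage-gated potassium channels by their brightest probe set, 15 other potassium channels, 10 sodium channels and 10 calcium channels was called, with medians of -0.10, -0.16, 0.03 and -0.07. Kcna1 was called by its dimmer probe set only. Scn3a, a sodium channel of immature neurons, gave -0.62 (limma, adjusted p = 0.191). Of 10 ion pumps and exchangers none was called (median -0.19). The probe set that the study names AT1A2, of a sodium-potassium pump, had no symbol and stood outside this list (1.30, limma adjusted p = 0.26). Of 20 vesicle and release proteins 2 were called, Syt2 and Syn2, both lower in MIX, with a list median of -0.07. Sv2a, in the same list, had its mean higher in MIX.

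Adhesion molecules, signalling proteins and growth factors were compared next. Of 16 pentraxins, neurexins and adhesion molecules 1 was called (Nptxr) and 9 had a higher mean in MIX, with a list median of 0.12. Besides Ntm these included Lsamp, an adhesion molecule of the same family (0.44, limma adjusted p = 0.222), the chemokine Cx3cl1 (0.53, limma adjusted p = 0.238) and Nrxn3 (0.92, limma adjusted p = 0.345). Of 17 kinases and calmodulin-binding proteins none was called, but 14 had a higher mean in MIX, with a median of 0.22. Over all 1050 probe sets 453 (43.1%) had a higher mean in MIX. Of 5 axon guidance and growth genes none was called (median 0.17). Among 27 neurotrophic factors and receptors by their brightest probe set none was called (median -0.06), where Ngfr was taken by its probe set with the higher mean log2 signal over the 22 arrays and called by the other only. The list held Tgfb3 at -0.55 and Stat3 at -0.64 (limma, adjusted p = 0.245 and 0.345). Among 12 neurofilament and cytoskeleton genes 1 was called, Sncg (median -0.10).

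**Figure D4:**
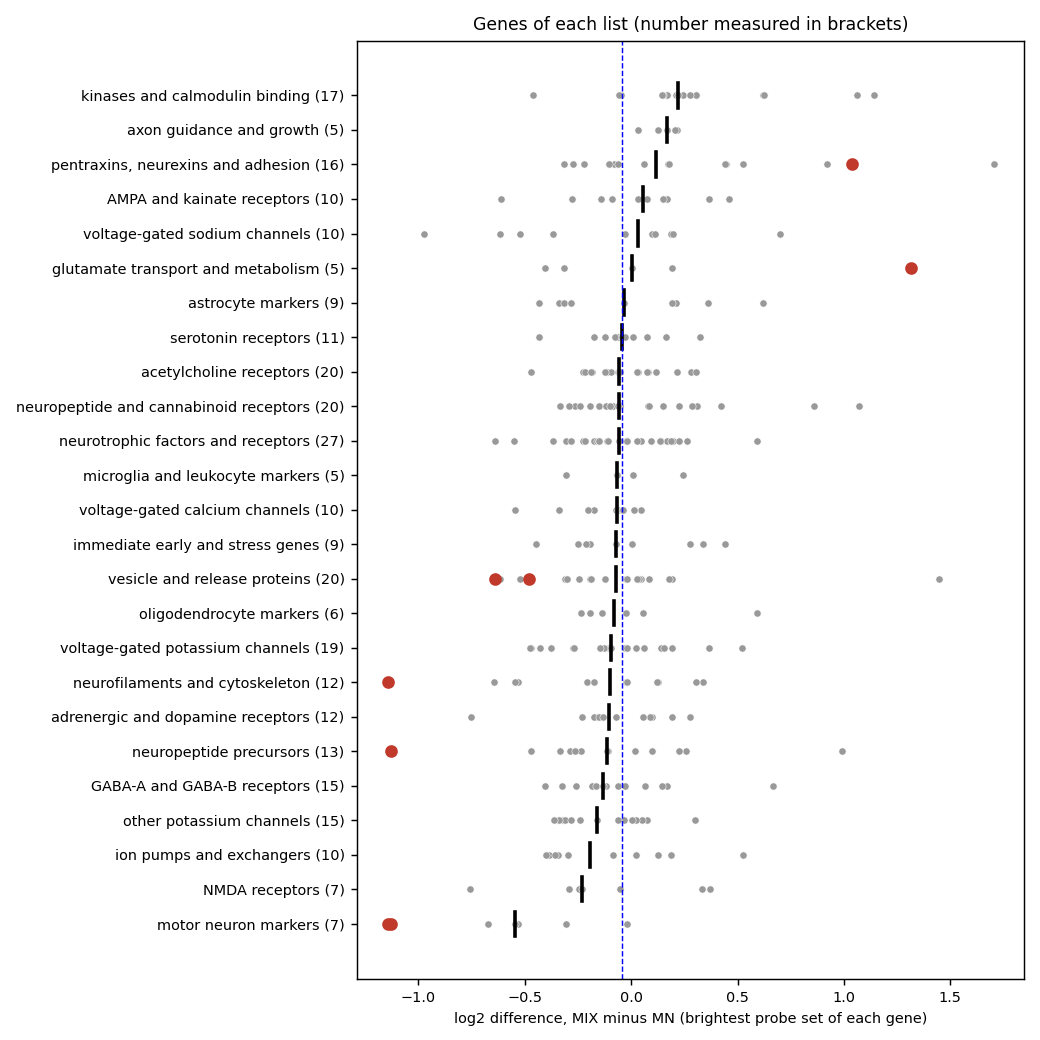
Log2 difference, MIX minus MN, of the genes in the 25 lists with at least 5 measured genes. Each point is a gene by its brightest probe set, red points were called, black bars are list medians and the blue dashed line is the median over all probe sets, -0.04. The list medians run from -0.55 for motor neuron markers to 0.22 for kinases and calmodulin-binding proteins.

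Markers of glia and other non-neuronal cells were examined because a random sample could hold them. Of 24 such markers measured, 1 reached an unadjusted p under 0.05 with limma, S100b, with a higher mean in MIX. The 24 included Ngfr, which was listed for Schwann cells as well as for MNs. None of 9 measured astrocyte markers of 18 listed was called, 4 lay above and 5 below 0, and the median was -0.03. Their summed signal, mostly that of Apoe, was 3721, 7347 and 9468 in MIX, 4376, 5504 and 6472 in MNs and 5744, 8178 and 9101 in dCINs. The MIX sums overlapped those of both other groups. S100b, a calcium-binding protein of astrocytes and also of some neurons, ran from 658 to 1691 in MIX and from 474 to 1036 in MNs (difference 0.62, limma adjusted p = 0.237). The 2 Apoe probe sets gave 0.73 and 0.36 (limma, adjusted p = 0.248 and 0.412). Gfap, the defining intermediate filament of astrocytes, was dim in both groups, at 46.4 to 61.4 in MIX and 40.2 to 65 in MNs by the brighter probe set. The part of astrocyte RNA in the other results was not tested.

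None of 6 oligodendrocyte, 5 microglia and leukocyte, 2 vessel and blood and 4 Schwann cell markers was called, with medians of -0.08, -0.07, 0.16 and -0.06. The Schwann cell list shared S100b with the astrocyte list and Ngfr with the motor neuron list. Ngfr entered it by the probe set that was not called. Their summed signals overlapped between the groups, at 444 to 1322 and 550 to 839 for oligodendrocytes, 120 to 143 and 126 to 183 for microglia and leukocytes, 101 to 277 and 88.6 to 226 for vessels and blood, and 2787 to 4743 and 2675 to 3644 for Schwann cells (MIX, then MN). Mbp, a defining protein of myelin, lay at 30.8 to 45.5 in MIX and 30 to 41.8 in MNs. None of 9 immediate early and stress genes (median -0.07) and of 4 nuclear receptors (median -0.13) was called. In all, 8 of the 33 lists held a called gene.

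MIX arrays differed among themselves in how far they stood from MNs. MIX array 8 had the lowest Slc18a3 and Calcb signals and MIX array 3 the lowest Sncg and Ngfr signals of the group. Relative to the mean of the MN arrays, MIX array 3 stood at -1.2 for Slc18a3, -2.0 for Sncg and 2.6 for Slc32a1 on the log2 scale, and MIX array 8 at -1.2, -1.2 and 2.6. MIX array 1 stood at -0.1 for Slc18a3 and yet at 2.0 for Slc32a1. Some transcripts varied more across MIX arrays than others: the SD of the log2 signal was 1.29 for Hcrtr2, 0.90 for Sv2a, 0.83 for Penk and 0.68 for Calcb, against 0.27 for Slc1a6. MIX array 6 held the highest Penk and Hcrtr2 signals of the group.

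**Figure D5:**
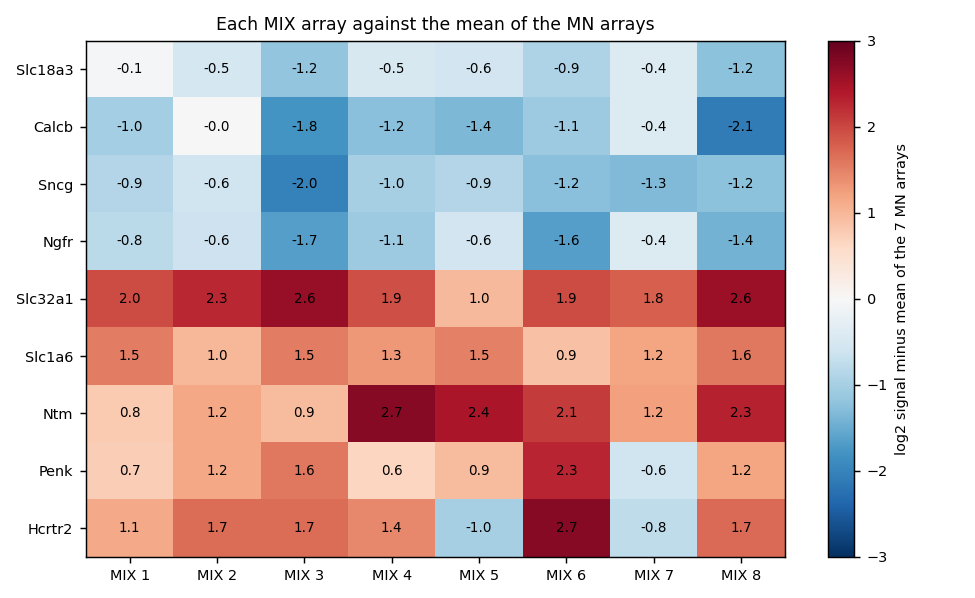
Log2 signal of 9 genes on each of the 8 MIX arrays minus the mean log2 signal of the 7 MN arrays (colour scale and printed values). Slc32a1 and Slc1a6 lie above 0 on all MIX arrays, Sncg and Ngfr below 0 on all, and Hcrtr2 runs from -1.0 to 2.7.

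Whether MIX arrays with less of the motor neuron marker held more of the interneuron transcripts was examined over the 8 MIX arrays, with 8 relations computed. None passed. The strongest was that of Slc18a3 with Calcb, with Pearson's r = 0.65 (exact permutation p = 0.0761, adjusted 0.35) and Spearman's rho = 0.74 (exact permutation p = 0.0458, adjusted 0.367), both two-sided. Without MIX arrays 3 and 8, the 2 farthest from the median of Slc18a3, r fell to 0.13. On linear values the 2 farthest were MIX arrays 1 and 8, and r went from 0.48 to 0.60 without them, so the outcome turned on which arrays were left out. For Slc32a1 r was -0.52 (exact permutation p = 0.185, adjusted 0.37) and rho was -0.50 (exact permutation p = 0.216, adjusted 0.432), and without MIX arrays 3 and 8 r was 0.09, whereas on linear values it was -0.57, and -0.58 without MIX arrays 1 and 8. The relation with Slc1a6 was weak (r = -0.08, exact permutation p = 0.843, adjusted 0.843; rho = -0.19, exact permutation p = 0.665, adjusted 0.665). Of the other motor neuron markers, Nefl and Sncg gave r = 0.54 and 0.63, and Ngfr, by its uncalled probe set, gave -0.25. Hcrtr2 gave r = -0.43. The number of cells gave r = 0.41, and 0.79 without MIX arrays 3 and 8. On linear values it gave 0.51, and 0.40 without MIX arrays 1 and 8.

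Taken as whole profiles, MIX and MN arrays were not separated along the first principal component of the 15 arrays, which carried 30.5% of the variance. Scores were -3976, -1059 and 3899 for MIX and -310.0, 300.0 and 3298 for MN, and an exact permutation test of the mean difference gave a two-sided p = 0.147. MIX arrays 5 and 7 lay on the MN side. With each of the 15 arrays left out in turn, p ran from 0.0181 to 0.442 (exact permutation, two-sided). The lowest p came without MIX array 7, which had the highest score, and the highest without MIX array 8. When the component was taken over all 22 arrays, so that dCINs shaped the axis, MIX scores were lower than MN scores (exact permutation, two-sided p = 0.00389). The component of the 15 arrays was led by Tubb5, Apoe and Nefl, which supplied 18.8%, 15.5% and 9.62% of its squared weights.

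No difference in spread was detected between the random and the identified samples. The value of 1 minus the correlation of an array with its group was 0.0205, 0.0335 and 0.105 among MIX and 0.0306, 0.0364 and 0.118 among MN arrays (exact permutation, two-sided p = 0.479). The SD of the log2 signal was larger among MIX arrays for 522 of 1050 probe sets (49.7%). A p that misses the threshold does not show that the spreads were alike.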

How the data were processed

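Amplified RNA of laser microdissected cells was hybridized to Affymetrix RN_U34 arrays. The deposited table holds intensity values, which the authors made from the perfect match probes by background subtraction, 2 quantile normalizations across the whole set of arrays (linear transformation, then projection), summaries by the Li-Wong model on a linear scale and removal of a minimum, so arrays were forced to a common distribution before any comparison. Its values run from 1 to 8642. Of 1050 probe sets, 961 carried 1 gene symbol in the platform annotation, 2 were named from the paper, 7 had several genes and 80 were not named. Some genes are not reported here. Arrays hold no counts, and precision rests on the number of arrays. Each array came from another animal.

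Values were log2-transformed and fitted with limma 3.58.1 (R 4.3.3) as 3 group means over 22 arrays, with Benjamini-Hochberg adjustment and a threshold of 0.1. Single measures were compared by exact permutation tests. Figures used matplotlib 3.10.9. The code was tested on simulated data. The members, gene lists (33, each gene by its brightest probe set) and rule for named genes were chosen with earlier results of these data known, and several lists hold genes that the study had selected on these arrays. The rule named Slc18a3, Slc32a1, Slc1a6 and Nefl, up to 15 called probe sets per direction by size of difference (the 5 smallest p where under 5 were called), up to 3 genes of smallest p per list, Gfap, Mbp, Gapdh and beta-actin, and Calcb, Sncg, Ngfr and Hcrtr2, with further probe sets of the leading genes. Genes named outside it (Slc1a1, Nefm, Nrxn3, Cx3cl1, Tubb5 and others given beside a list) were chosen after their values were seen. Alternatives were other sets of arrays, filters, normalizations, priors, weights, covariates, thresholds, a regularized t (Cyber-T), the array number as a block and leaving out each of the 15 arrays.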

Additional observations from a re-analysis of the deposited data

Results flagged for a closer look

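In 5 of the 62 groups of arrays examined gene by gene, a single array stood apart from the others of its group by more than Dixon's 95% limit. Chance alone passes this limit in about 1 group in 20 if values are normally distributed. The gaps were taken on linear signals, whereas the comparisons above used log2 values, so the flags depend on the scale. MN array 3 was the highest of 7 for Slc32a1 (366) and Cnr1, the cannabinoid receptor (247). MN array 7 was the lowest of 7 for Penk (24.9). MIX array 6 was the highest of 8 for Hcrtr2 (136), and MIX array 2 was the highest of 8 for Scn3a (196). Without MN array 3, 11 probe sets were called between MIX and MNs in place of 10, and 8 of them were the same.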

How the results depend on the processing

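The number of called probe sets was 10, and it ranged from 2 to 14 when each of the 15 arrays was left out. It was 3 after quantile normalization, 33 with array weights (9 shared with the 10) and 2 at an adjusted p under 0.05. Without the MN samples of over 200 cells, which are MN arrays 1 and 2, it was 2. Without MIX arrays 5 and 7 and MN arrays 1 and 2 it was 3, a setting added after seeing the data. The other settings gave 7 to 13, with 7 for the 15 MIX and MN arrays alone (6 shared), and the cause of these shifts was not tested. Slc1a6 was called in all of them, and Slc32a1 in all but the fit of arrays numbered 3 and above (8 called, 4 shared). No named gene of the leading set reversed. With the array number as a replicate block, fitted on MIX and MN arrays numbered 1 to 7 only, 8 were called, 6 shared. Ntm, not called in the main fit, had a limma adjusted p of 0.015 there. With the 15 MIX and MN arrays and no block it was 0.0517. Arrays of the same number came from different animals and were not treated as paired in the main fit. Their deviations correlated between -0.03 and 0.42, and only MIX array 3 resembled its own number best. Whether arrays of the same number shared processing was not tested. With arrays 1 and 2 against the rest as a covariate, 13 probe sets were called, 12 of them at an adjusted p under 0.05. The share of the first component lying between the groups was 0.155, 0.0514 to 0.364 with an array left out, and 0.504 with the component taken over all 22 arrays. Across MIX arrays the relation of Slc18a3 with Slc32a1 turned from -0.524 to 0.0941, and with Slc1a6 from -0.0837 to 0.708, without the 2 farthest arrays (MIX arrays 3 and 8). On linear values, where the 2 farthest were MIX arrays 1 and 8, neither turned (-0.565 to -0.584 and -0.0306 to -0.18). The difference in cell number turned from -6.45 to 38.1 cells without the 2 largest MN samples. Whether dim probe sets stood above background was not analysed here.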
